A study of Mus musculus with 2 samples.

Results

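The nuclear genes for the subunits of the mitochondrial respiratory chain were examined in mature hepatocytes (MHs) from healthy mouse liver and in Sox9+EpCAM- cells from liver injured by DDC, a dietary compound that causes chronic bile duct injury. The members were the 85 genes of 30153 on the array whose names begin with *Nduf*, *Sdh*, *Uqcr*, *Cox* or *Atp5* in the form used for subunits of complexes I to IV and of ATP synthase, and they were read with 128 probes. A name rule takes some genes that are no subunits: *Cox4nb* (now *Emc8*, a subunit of a membrane complex of the endoplasmic reticulum), *Atp5s* (now *Dmac2l*) and *Atp5sl* (now *Dmac2*) matched it, and the main counts are also given without them. *Ndufa4* carries a complex I name but is today assigned to complex IV.

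By the paper's methods both the healthy and the DDC-injured livers were those of Sox9-EGFP mice, in which a fluorescent reporter marks cells with *Sox9* expression. MHs were purified by Percoll centrifugation from normal liver, and FACS after feeding with DDC gave the Sox9+EpCAM- cells as GFP+EpCAM- cells. Both samples are labelled male, and the labels give neither age nor number of mice. The RNA of each sample, carrying the dye Cy3, was read on 1 Agilent array, so there were no replicates and neither an SD between samples nor a test is given. Precision is limited by this number of arrays. Diet and isolation method differ between the samples together and cannot be told apart, and neither can the sex-linked difference given below.

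The respiratory chain sits in the inner mitochondrial membrane. Complex I takes electrons from NADH, complex II takes them from succinate, complex III passes them to cytochrome c, complex IV passes them to oxygen, and ATP synthase uses the proton gradient so built to make ATP. Hepatocytes are rich in mitochondria, and most subunits have 1 form in all tissues while several subunits of complex IV have a second form used in muscle, testis or lung.

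Signals well above background came from 27523 of the 43020 non-control spots for MHs and from 32158 for Sox9+EpCAM- cells. Intensities were divided by the 75th percentile of their array, 741 for MHs and 1110 for Sox9+EpCAM- cells, so equal raw intensities stand for a lower scaled level in Sox9+EpCAM- cells. The MH array went against its label: *Xist*, the RNA of the inactive X chromosome in females, read 1940 there and 16.1 on the Sox9+EpCAM- array, and the Y-linked genes *Ddx3y*, *Kdm5d*, *Uty* and *Eif2s3y* passed the background flag for Sox9+EpCAM- cells only. The hepatocyte gene *Alb* was 1.82-fold lower in Sox9+EpCAM- cells, and the summed scaled level of 8 hepatocyte markers was 1044 in MHs and 487 in Sox9+EpCAM- cells, from *Cyp2e1* (44.2-fold lower) and *Tat* (5.51-fold lower) to *Hnf4a* (-0.23). That of 6 cholangiocyte markers was 1.43 and 45.7, and *Spp1* (258 and 47000, 122-fold higher) made up most of the sum in Sox9+EpCAM- cells. *Epcam*, the marker gated against, was 13.3-fold higher, *Krt19* and *Krt7* were at 0.42 and -0.23, *Cftr* read 69.6 and 52.1, and *Sox9* was at least 1.45-fold higher. That of 4 leukocyte markers was 14.6 and 2.14, with *Cd74* 8.38-fold and *Lyz2* 6.23-fold lower and *Ptprc* at -0.24, and that of 3 endothelial markers was 5.75 and 1.96, with *Stab2* 8.09-fold lower and *Pecam1* at -0.75. The erythroid gene *Hba-a1* was 15.5-fold lower. Markers of smooth muscle and pericytes summed to 3.95 and 4.33, with *Myh11* 5.75-fold higher and *Rgs5* 4.75-fold lower. The part of these differences in the values of the respiratory chain was not tested, and in bulk samples fewer cells of a type and less RNA per cell cannot be told apart.

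Promoters of members are shown first, since the respiratory genes are known targets of the nuclear respiratory factors NRF1 and GABPA (NRF2), which bind shortly before the start of many of them. Of the 85 names, 81 are current symbols in RefSeq and 4 are synonyms there, and 69 had a promoter of 250 bases before to 50 after the start (RefSeq, GRCm38.p6). The core GCATGCG of the NRF1 motif was found on either strand in 11 of the 69 (15.9%), as compared with 4.01% of 27025 genes. The core CCGGAAG of the GABPA motif was found in 16 (23.2% against 9.93%), AAGATGG of YY1 in 12 (17.4% against 7.28%), and AAGGTCA of the receptor ESRRA in 8 (11.6% against 5.38%). None of the 4 cores contains another, and the NRF1 core on both strands at one place counts as 1 window. The windows of 6 genes held both the NRF1 and the GABPA core: *Sdhb*, *Uqcr11*, *Cox6a1*, *Atp5k*, *Atp5j* and *Atp5l*. Their log2 differences ran from -2.43 (*Atp5k*) to -0.21 (*Atp5j*). *Ndufa8*, one of the few members with a higher level in Sox9+EpCAM- cells, held the NRF1 core also. The 250 bases before the start are given for 4 of the 6 and for the isoform genes with the most opposed values, *Cox7a1* and *Cox6b2*. The windows of these isoform genes held none of the 4 cores, as did those of many other members, such as *Sdha*, *Atp5b* and *Cox7a2*. Capitals mark the cores, and those in the 50 bases after the start are not printed. A match is a description of the letters and shows no binding.
Sdhb, chr4:140961021-140961270, plus strand: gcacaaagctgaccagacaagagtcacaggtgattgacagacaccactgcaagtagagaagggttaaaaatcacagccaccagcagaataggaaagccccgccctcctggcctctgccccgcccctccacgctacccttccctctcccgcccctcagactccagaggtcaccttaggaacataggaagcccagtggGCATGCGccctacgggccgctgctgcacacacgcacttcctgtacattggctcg
Uqcr11, chr10:80406822-80407071, minus strand: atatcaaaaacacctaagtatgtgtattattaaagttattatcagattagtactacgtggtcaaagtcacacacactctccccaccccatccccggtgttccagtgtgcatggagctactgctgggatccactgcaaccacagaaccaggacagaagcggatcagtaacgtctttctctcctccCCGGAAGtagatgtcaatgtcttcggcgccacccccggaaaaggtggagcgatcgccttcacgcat
Cox6a1, chr5:115348959-115349208, minus strand: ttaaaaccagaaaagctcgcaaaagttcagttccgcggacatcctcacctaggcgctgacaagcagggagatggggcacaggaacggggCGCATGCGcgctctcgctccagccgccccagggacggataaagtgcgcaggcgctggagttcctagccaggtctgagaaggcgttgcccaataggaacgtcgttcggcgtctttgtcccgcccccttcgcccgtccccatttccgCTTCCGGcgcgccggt
Atp5k, chr5:108434400-108434649, minus strand: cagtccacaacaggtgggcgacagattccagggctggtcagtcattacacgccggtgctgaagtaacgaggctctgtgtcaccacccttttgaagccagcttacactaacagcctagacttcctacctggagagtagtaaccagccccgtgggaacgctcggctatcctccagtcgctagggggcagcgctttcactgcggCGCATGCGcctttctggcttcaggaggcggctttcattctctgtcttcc
Cox7a1, chr7:30183921-30184170, plus strand: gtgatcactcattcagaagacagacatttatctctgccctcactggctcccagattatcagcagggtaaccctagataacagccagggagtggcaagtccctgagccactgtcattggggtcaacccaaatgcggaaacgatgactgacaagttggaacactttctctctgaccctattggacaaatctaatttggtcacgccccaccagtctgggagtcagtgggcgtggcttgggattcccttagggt
Cox6b2, chr7:4753095-4753344, minus strand: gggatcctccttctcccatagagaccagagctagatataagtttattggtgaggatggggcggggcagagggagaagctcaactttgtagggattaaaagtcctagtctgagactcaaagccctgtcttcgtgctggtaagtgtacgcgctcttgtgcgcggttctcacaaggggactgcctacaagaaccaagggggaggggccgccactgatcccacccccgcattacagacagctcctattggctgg

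Transcripts of the respiratory chain were lower in Sox9+EpCAM- cells than in MHs in all 5 complexes by their medians. Of the 85 genes, 82 gave a signal well above background in both samples, *Cox8b* was so on the Sox9+EpCAM- array only, and *Cox7b2* and *Cox8c* on neither. Each gene is represented by its brightest probe, and differences are log2 of the scaled level in Sox9+EpCAM- cells minus that in MHs. Of the 82 genes, 36 were at least 2-fold lower (43.9%, where 17.9% of the 21888 genes with a value were) and 4 were at least 2-fold higher (4.88%, where 15.2% of all genes were). Of the 4, *Cox6b2*, *Cox6a2*, *Atp5s* and *Ndufa8*, all dim in MHs, only *Cox6b2* passed 2-fold with normexp background correction. The median was -0.89, or 1.86-fold lower, with the middle 50% of the genes between -1.34 and -0.47, and the median of all genes was -0.12. In 72 genes the difference was below 0 (66 when *Gapdh* and 78 when *Actb* set the scale). In 70 genes it was below the median of all genes (66 after quantile normalization and 67 with normexp background correction). Scaling to *Gapdh* or *Actb* shifts members and all genes alike, so it cannot check this last count. Of the 82, 9 were at least 4-fold lower, where 5.97% of all genes were. Without the 3 genes that are no subunits, 34 of 79 were at least 2-fold lower, 3 were higher and the median was -0.86. Many of the 36 lay just past the rule of size, such as *Atp5d* (-1.02) and *Ndufa6* (-1.05), and the count moves with the scaling: 22 genes were 2-fold lower when *Gapdh* set the scale and 20 after quantile normalization, where the median of the members was -0.63 and -0.56 and that of all genes 0.14 and -0.05. These counts are 26.8% of the members beside 13.0% of all genes with *Gapdh* and 24.4% beside 18.2% after quantile normalization, so the excess over all genes was smallest with the latter. With *Actb* 67 members were 2-fold lower (81.7% beside 46.0%). The raw levels behind these differences are drawn in the plot of intensities on both arrays.

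**Figure D1:**
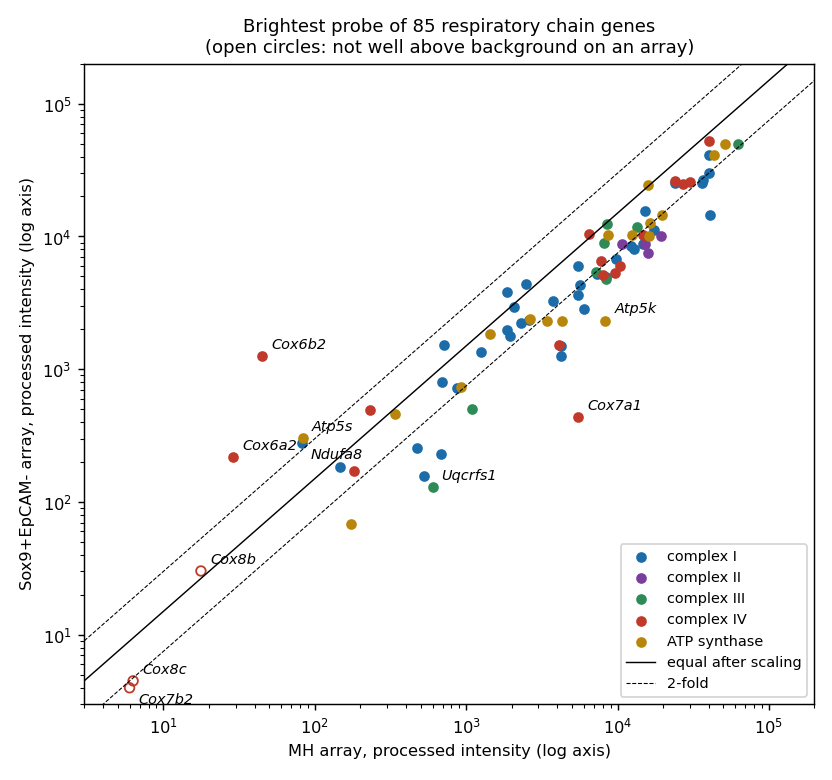
Processed intensity of the brightest probe of the 85 genes on the MH array (x axis) and the Sox9+EpCAM- array (y axis), both log axes in units of fluorescence, coloured by complex. The solid line marks equal scaled levels and the dashed lines 2-fold; most genes lie below the solid line, *Cox7a1* far below it and *Cox6b2* and *Cox6a2* above it, and the open circles are genes not well above background on an array.

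Complex I, the NADH dehydrogenase and the largest complex of the chain, had 37 members, with a median of -0.97. Of these, 17 were at least 2-fold lower (45.9%, beside 17.9% of all genes) and 1 higher (2.70% beside 15.2%). The count lower was 8 after quantile normalization, 9 with *Gapdh* and 32 with *Actb* as the scale, beside 18.2%, 13.0% and 46.0% of all genes. The 3 lowest members of complex I were *Ndufb8*, *Ndufv1* and *Ndufb7*. *Ndufb8*, a membrane subunit often used as a sign of assembled complex I, read 4250 in MHs and 1250 in Sox9+EpCAM- cells (5.09-fold lower after scaling). *Ndufv1*, which binds the flavin that accepts electrons from NADH, read 530 and 158 (5.02-fold lower). *Ndufb7* read 687 and 228 (4.51-fold lower). These 3 were picked by their low values, so their like size is no result. *Ndufv1* belongs to the arm in the matrix and the others to the arm in the membrane. *Ndufs3*, a core subunit of the matrix arm, read 4220 and 1490 (4.24-fold lower), and *Ndufa2*, an accessory subunit of that arm, read 40700 and 14600 (4.18-fold lower). The other accessory subunits past 2-fold lay closer to that size: *Ndufs4*, *Ndufa12* and *Ndufa6* of the matrix arm were 2.14-fold, 2.11-fold and 2.07-fold lower. In the membrane arm *Ndufb4* (2.80-fold), *Ndufb10* (2.54-fold), *Ndufc1* (2.40-fold), *Ndufa10* (2.33-fold) and *Ndufb9* (2.12-fold) were lower.

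All 16 genes of the matrix arm had a difference below 0, with a median of -1.02. The 7 core subunits among them, which carry the flavin and the iron-sulphur clusters, had a median of -1.32 and ran from -2.33 (*Ndufv1*) to -0.48 (*Ndufs7*), with *Ndufv2* at -1.65, *Ndufs1* at -1.32 and *Ndufs8* just outside the rule of size (1.99-fold lower). The 19 genes of the membrane arm had a median of -0.86 and a wider range, from -2.35 to 1.18. The 4 members of complex I with a positive difference were all of that arm: *Ndufa8* at 1.18, *Ndufb11* at 0.53, *Ndufb5* at 0.46 and *Ndufa3* at 0.24, of which only *Ndufa8* stayed above 0 when *Actb* set the scale. *Ndufa8*, a subunit on the side of the intermembrane space, read 82.1 in MHs and 278 in Sox9+EpCAM- cells (2.26-fold higher), the only complex I gene past 2-fold in that direction. *Ndufa1*, *Ndufb11* and the complex IV gene *Cox7b* lie on the X chromosome, which carries *Xist*, and they had differences of -1.19, 0.53 and -0.81. The other probes of *Ndufb11* were at -0.32 and -0.29, so its sign depended on the probe. *Ndufa4*, the complex IV subunit with a complex I name, was 2.16-fold lower. Its relative *Ndufa4l2*, a gene known to respond to hypoxia, read 146 and 183, a difference of -0.26.

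Complex II, succinate dehydrogenase, is shared with the citric acid cycle and has only nuclear subunits. Its 4 genes had the lowest median of the 5 complexes, -1.45, and 3 were at least 2-fold lower. The catalytic pair was lowest: *Sdhb*, the iron-sulphur subunit, read 16000 in MHs and 7520 in Sox9+EpCAM- cells (3.19-fold lower), and *Sdha*, the flavin subunit, read 19300 and 10100 (2.86-fold lower). The membrane anchors followed, *Sdhc* with 15300 and 8730 (2.63-fold lower) and *Sdhd* with 10700 and 8830 (1.82-fold lower).

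Complex III, the cytochrome bc1 complex, had 8 members, all with a difference below 0, except that *Uqcr10* was at 0.22 when *Gapdh* set the scale and at 0.35 after quantile normalization. Of the 8 genes 4 were at least 2-fold lower (7 with *Actb* as the scale; median -0.96). *Uqcrfs1*, the Rieske iron-sulphur protein, read 600 and 129 (6.97-fold lower), the lowest ratio of any member outside the isoforms. Small subunits came next, *Uqcr11* with 1100 and 498 (3.31-fold lower) and *Uqcrh* with 8390 and 4790 (2.62-fold lower), and *Uqcrq*, with 7210 and 5400, was just past the rule of size. At the other end *Uqcr10*, *Uqcrc1* and *Uqcrc2* had differences of -0.05, -0.45 and -0.77. *Uqcrc2*, a core protein, was printed at 10 spots, which read 12800 to 13800 (median 13450) in MHs and 11500 to 12000 (median 11750) in Sox9+EpCAM- cells. The spots of the 2 arrays did not overlap, and the SD between spots was 0.03 and 0.02 on the log2 scale. These spots are repeats of 1 probe on 1 array per sample. Their SD covers neither the scaling by 741 and 1110, which enters the difference of -0.77, nor variation between mice.

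Complex IV, cytochrome c oxidase, held the extremes in both directions, and both were tissue isoforms. Its 16 genes with a value had a median of -0.76, with 6 at least 2-fold lower (37.5%, beside 17.9% of all genes) and 2 higher (12.5% beside 15.2%). The count lower was 4 with *Gapdh* as the scale or after quantile normalization, beside 13.0% and 18.2% of all genes. With *Actb* it was 11, beside 46.0%. The 10 ubiquitous forms ran from -1.43 to 0.49 with a median of -0.82. Of these *Cox6a1* was the lowest, with 9590 and 5340 (2.69-fold lower), then *Cox7a2* (2.62-fold lower) and *Cox5a* (2.37-fold lower), and *Cox4i1*, the regulatory subunit IV, was 2.16-fold lower. *Cox7c* at -0.21 (0.27 after quantile normalization) and *Cox5b* at 0.49 (-0.15 with normexp background correction) were the highest of them. *Cox7a2l*, which takes part in supercomplexes of complexes III and IV, was at 0.11, and *Cox4nb* was 4.03-fold lower.

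Of the 7 tissue isoforms, 4 were measured on both arrays. *Cox7a1*, the form of heart, muscle and brown fat, read 5510 in MHs and 433 in Sox9+EpCAM- cells, 19.1-fold lower. Its ubiquitous partner *Cox7a2* read 10400 and 5950, a difference of -1.39 against -4.25. *Cox6b2*, the testis form, went the other way, with 44.9 and 1250 (18.6-fold higher), whereas *Cox6b1* read 23800 and 26200 (-0.44). *Cox6a2*, the form of heart and muscle, read 28.8 and 217 (5.03-fold higher), whereas *Cox6a1* was lower. *Cox4i2*, the lung form, read 181 and 171, a difference of -0.67 that was smaller than the -1.11 of *Cox4i1*. *Cox8b* read 17.7 and 30.2 and was not well above background in MHs. No fold is given, since its scaled level in Sox9+EpCAM- cells lay below the lowest level well above background in MHs. *Cox8a* was 1.77-fold lower, and *Cox7b2* (5.98 and 3.98) and *Cox8c* (6.31 and 4.49) were not well above background on either array. The heart and muscle forms *Cox7a1* and *Cox6a2* therefore moved in opposite directions. Both higher isoforms were dim in MHs, near the lowest intensity well above background there (27.8), and their size depended on the background correction: with the normexp method *Cox6b2* was at 2.97 and *Cox6a2* at 0.97. Among 6 markers of skeletal and heart muscle, *Ckm* was 4.61-fold and *Actc1* at least 10.2-fold higher, the others lay between -0.58 (*Tnnt3*) and 0.65 (*Acta1*), and the summed scaled level was 1.05 in MHs and 1.77 in Sox9+EpCAM- cells. Of 3 brown fat markers, *Cidea* read 854 and 664 (1.93-fold lower), *Ucp1* was well above background in MHs only and *Elovl3* in neither sample. Their part in the isoform values was not tested.

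**Figure D2:**
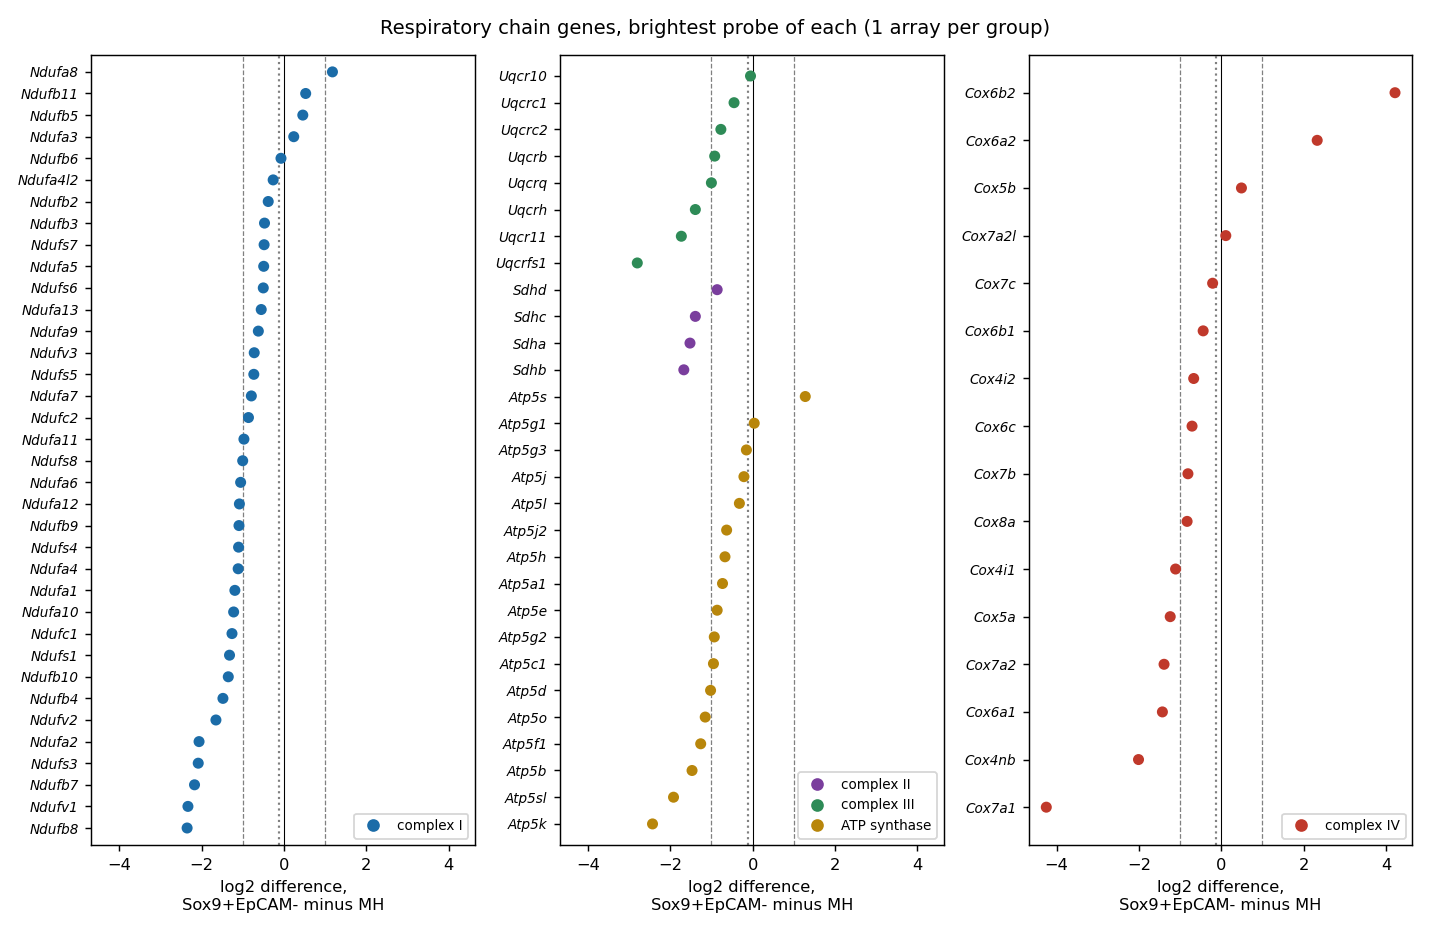
Log2 difference (Sox9+EpCAM- minus MH, x axis) of the brightest probe of the genes with a value, 1 gene per line, coloured by complex. Dashed lines mark 2-fold and the dotted line the median of all genes (-0.12); points lie mainly left of the dotted line, and complex IV spans from *Cox7a1* (-4.25) to *Cox6b2* (4.22).

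ATP synthase is built of a catalytic F1 head, a peripheral stalk and a part in the membrane. Its 17 members had a median of -0.86, with 6 at least 2-fold lower (35.3%, beside 17.9% of all genes) and 1, *Atp5s*, higher. The count lower was 3 with *Gapdh* as the scale and 13 with *Actb*, beside 13.0% and 46.0% of all genes. After quantile normalization it was 3 (17.6% beside 18.2% of all genes). The 5 genes of F1 ran from -1.47 to -0.73 (median -0.95): *Atp5b*, the catalytic beta subunit, read 4290 and 2320 (2.77-fold lower) and *Atp5d*, the delta subunit, was 2.03-fold lower, while *Atp5a1*, the alpha subunit, read 2650 and 2400 (1.65-fold lower). The 4 genes of the stalk had a median of -0.91, with *Atp5f1* 2.39-fold and *Atp5o* 2.21-fold lower. The 6 genes of the membrane part had a median of -0.47, and *Atp5k*, subunit e, was apart from the other 5, with 8320 and 2320 (5.37-fold lower). Of the paralogs for subunit c, which code for the same mature protein, *Atp5g1* was at 0.04, *Atp5g3* at -0.15 and *Atp5g2* at -0.93 by their brightest probes. The first and the second cross 0 under other scalings. The other *Atp5g1* probe read 16700 and 9510 and gave -1.40, so the order of the paralogs depended on the probe. Of the 2 names that are no subunits, *Atp5sl* read 173 and 68.4 (3.79-fold lower) and *Atp5s* read 83.2 and 302 (2.42-fold higher).

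Probes of 1 gene served as a check within the arrays. For 29 genes with several probes, the median range between them was 0.46 on the log2 scale, and over all 125 probes with a value 50 were at least 2-fold lower and 4 higher, with a median of -0.86. Probes well above background on both arrays had both signs in 5 genes (*Atp5g1*, *Atp5l*, *Cox5b*, *Ndufb11* and *Ndufb5*), and with bounds counted *Ndufa3* did too. *Atp5k* kept a large difference with all 3 probes, -2.43, -3.36 and -3.60. The array design places the first 2 of these on the Y chromosome and the third on chromosome 5, where RefSeq has the gene. *Atp5g1* differed, at 0.04 with its brightest probe and -1.40 with the other, which shares 20 bases with a probe of another name, and so did *Atp5j*, at -0.21 and -1.49. *Ndufa3* had 2 probes at 0.24 and 0.82 and a probe of another transcript that read 267 in MHs and was not well above background in Sox9+EpCAM- cells, a level at least 21.7-fold lower. The brightest *Cox5b* probe lies on chromosome 15 by the design and its RefSeq probe, at -0.10, on chromosome 1. In all, 17 member probes (13.3%) hold 20 bases in a row that also occur in a differently named probe, as compared with 7.16% of all probes. The 9 genes whose brightest probe does so had a median of -0.67, and those whose brightest probe does not had a median of -0.93.

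The probes of 3 genes show what was read. The *Cox7a1* probe (mm9, chr7:30970337-30970948, plus strand) covers 612 bases of genome with its 60 bases, so that it joins sequence of different exons, and it is printed in lower case throughout. In the *Cox6b1* probe (chr7:31409575-31411071, minus strand), which also spans an intron, and in the *Uqcr10* probe (chr11:4604252-4604311, minus strand) capitals mark the first ATG. The probes of *Uqcr10* differed: this one at the 5′ end of the coding sequence gave -0.05, and 2 probes about the 3′ end of the gene gave -0.94 and -0.89.
Cox7a1 probe: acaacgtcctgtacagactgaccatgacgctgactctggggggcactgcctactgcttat
Cox6b1 probe: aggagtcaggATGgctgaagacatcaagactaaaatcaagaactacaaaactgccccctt
Uqcr10 probe: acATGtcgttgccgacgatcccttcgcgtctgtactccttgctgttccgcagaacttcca

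**Figure D3:**
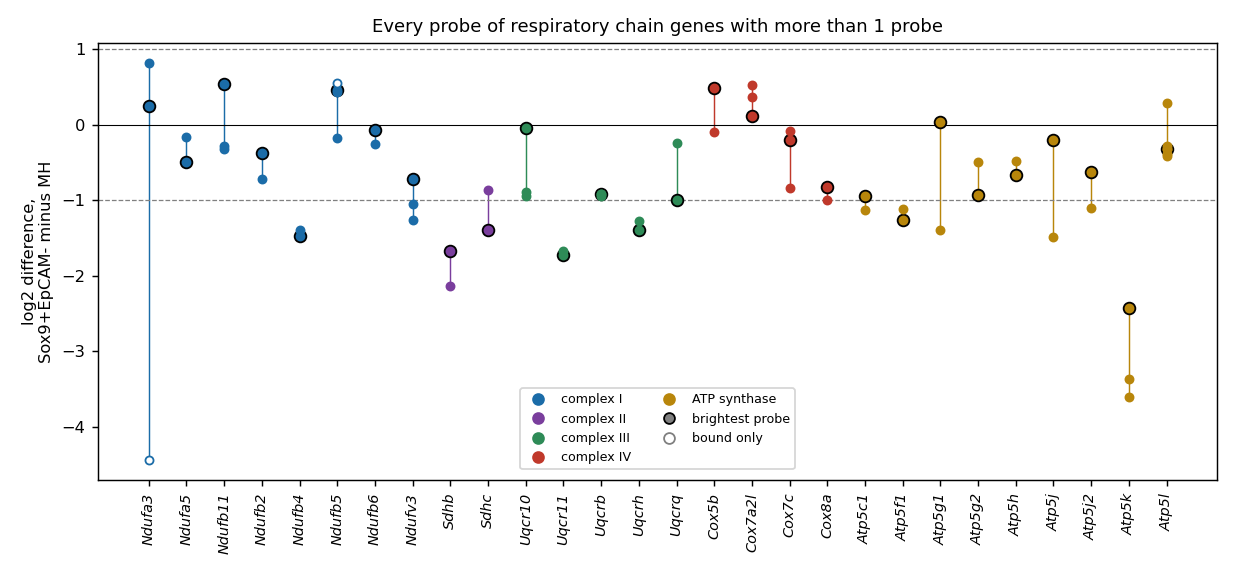
Log2 difference (Sox9+EpCAM- minus MH, y axis) of every probe with a value for genes with more than 1 probe (x axis), coloured by complex; the probe outlined in black is the brightest, white points are bounds and the line joins the lowest and the highest. Most genes have probes close together, and *Ndufa3*, *Atp5g1*, *Atp5j* and *Atp5k* are spread by more than 1 log2.

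Subunits that the naming rule left out had like values. The 13 subunits encoded by mitochondrial DNA, read by probes of their own, all had a difference below 0, with a median of -0.86. Of the 13, 5 were at least 2-fold lower (beside 17.9% of all genes). They ran from -3.06 for *ND3* to -0.61 for *ATP6*. *ND3*, whose probe the design places on a nuclear copy on chromosome 1, read 9880 and 1780, and the other 12 lay between -1.19 and -0.61. Of the nuclear genes left out, *Ndufab1*, the acyl carrier protein of complex I, was 5.73-fold lower, *Cyc1*, the cytochrome of complex III, was 2.53-fold lower, and *Usmg5*, a small subunit of ATP synthase, was at 0.29.

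The genes that serve the chain were read next, and none of these lists was tested; the shares to read the counts against are the 17.9% of all genes that were at least 2-fold lower and the 15.2% that were higher. Cytochrome c (*Cycs*), which carries electrons to complex IV, was 2.08-fold lower, and of 16 carriers and enzymes of ubiquinone synthesis with a value 8 were at least 2-fold lower (50%) and 2 higher (median -0.95). *Coq9* was 4.23-fold lower, and *Etfdh*, which brings electrons from fat oxidation to ubiquinone, read 149 and 1250 (5.60-fold higher). Of 9 assembly factors for complex I, 4 were lower (44.4%) and 1 higher (median -0.91), with *Ndufaf3* 8.60-fold and *Ndufaf4* 4.02-fold lower, *Ndufaf2* at 0.21 and *Nubpl*, which delivers iron-sulphur clusters, at least 7.44-fold higher. For complexes II and III, *Sdhaf1* was 8.49-fold lower and *Bcs1l*, which inserts the Rieske protein, was 2.67-fold higher (median of 6 genes -0.60). Of 12 factors for complex IV, 6 were lower (50%) and 3 higher (25%; median -0.91): the copper chaperone *Cox17* was at least 5.68-fold and *Cox16* 3.22-fold lower, while *Cox19* was 6.20-fold higher. *Atpaf1*, a chaperone of F1, was 5.47-fold lower, and *Atpif1*, the inhibitor of ATP synthase, was 1.87-fold higher (median of 4 genes -0.84).

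Among 10 carriers and channels of the inner and outer membrane with a value, *Ucp3* and *Ucp2*, uncoupling proteins, were the highest. *Ucp3* read 200 in MHs and 5370 in Sox9+EpCAM- cells (17.9-fold higher) and *Ucp2* read 449 and 4380 (6.51-fold higher), whereas *Ucp1* was at least 3.09-fold lower and the median was -0.35. The channel *Vdac1* was 2.32-fold lower. The ADP/ATP carriers were split, *Slc25a4* at 0.80 and *Slc25a5* at -0.75.

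The list for the citric acid cycle also held *Dlat*, *Pdha1* and *Pdhb* of pyruvate dehydrogenase, which feeds the cycle, and left out the *Sdh* genes. Its median was -0.74, with 3 of 17 genes at least 2-fold lower (17.6%, near the 17.9% of all genes) and 0 higher. *Dlat* was lowest at -2.42, then *Fh1* at -1.21, and *Idh3g* was highest at 0.48. The mitochondrial ribosome had a median of -0.59, with 20 of 76 genes lower (26.3%) and 2 higher, from -3.32 (*Mrps34*) to 2.39 (*Mrps17*), with *Mrpl35*, *Mrps16*, *Mrpl39* and *Mrpl4* also at least 4-fold lower. A median below that of the chain was found for 7 antioxidant enzymes of mitochondria (-1.10), from -1.43 (*Prdx5*) to -0.24 (*Gpx4*). Upkeep and transcription of mitochondrial DNA (-0.48, with *Mterf* 4.01-fold lower, *Polrmt* at 1.15 and *Mterfd3* at 2.67 or more) and protein import (-0.13, lowest for *Timm8a1* at -1.49 and highest for *Timm17b*, which read 281 and 843) were nearer to all genes, and the cytosolic ribosome was at -0.07 with 0 of 78 genes 2-fold lower, from -0.86 (*Rpl27*) to 2.04 (*Rpl22l1*). When *Gapdh* set the scale these 3 medians were -0.22, 0.14 and 0.20, beside 0.14 for all genes. Of the factors whose cores were searched above, *Gabpa* was at -0.01, *Nrf1* at -0.51, *Yy1* at -0.50 and *Esrra* at -1.70 (3.25-fold lower, the lowest of 11 regulators). The coactivators *Ppargc1a* and *Pprc1* were at -0.61 and 2.20, the latter the highest of the list.

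**Figure D4:**
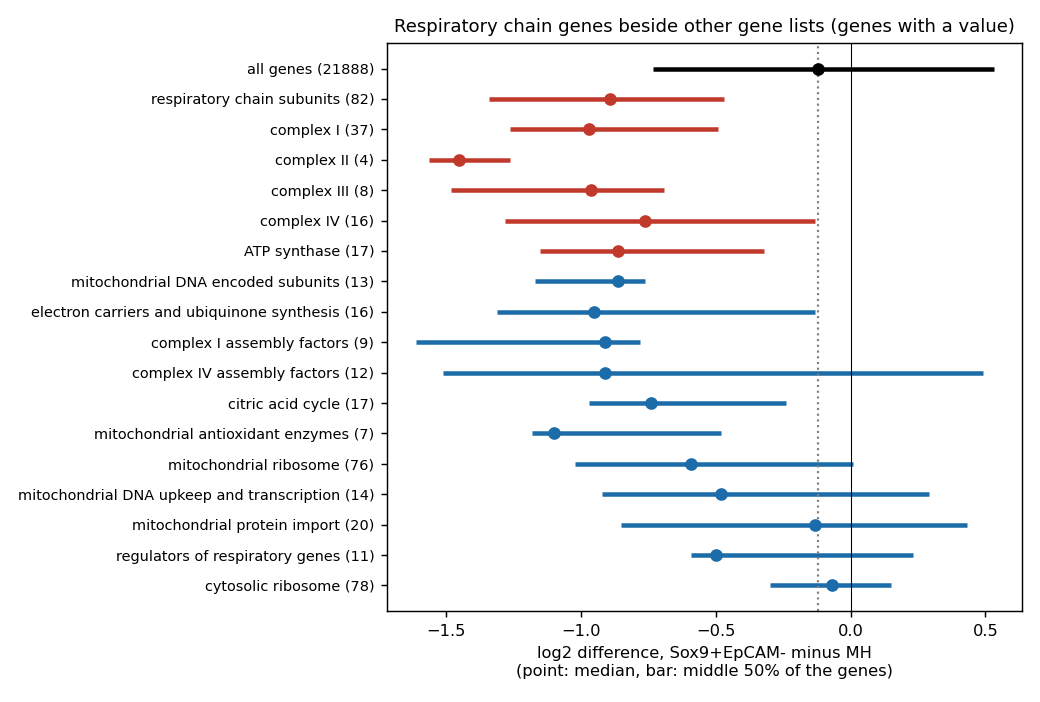
Median (point) and middle 50% (bar) of the log2 difference, Sox9+EpCAM- minus MH (x axis), for all genes, the respiratory chain genes and its complexes (red) and other gene lists (blue), with the number of genes with a value in brackets. The 5 complexes lie between -1.45 and -0.76 and the cytosolic ribosome at -0.07, beside all genes at -0.12 (dotted line).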

How the data were processed

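RNA of MHs and of Sox9+EpCAM- cells was hybridised by a service provider to 1 Agilent array each, on 1 slide read in 1 scan. The authors deposited the background-subtracted spot intensity from Feature Extraction 10.7.3.1, and also a table of the ratio of each intensity to the array median. Probe coordinates are those of the design on mm9. Control spots and outlier spots on either array were left out, each intensity was divided by the 75th percentile over its array, taken to log2 and averaged over the spots of a probe (39390 probes), and the probe with the highest mean stood for a gene. A probe not well above background on 1 array was given a bound there: its own intensity or, if higher, the lowest one flagged well above background (27.8 for MHs and 18.4 for Sox9+EpCAM- cells), and no difference where the bound left none. No spot was saturated. The rule of size was 2-fold, and no test was run with 1 array per group.

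In each complex the 3 highest and the 3 lowest members measured on both arrays were named, with every member 2-fold different, every tissue isoform, every member not well above background, and every member whose probes disagree by more than 1 log2; in each other list the highest, the lowest and 4-fold different genes were named. Others were named after their values were seen, as were the 13 mitochondrial genes as a group. A single member that is included in the counts is not reported here. Members and lists were chosen with earlier results of these data known. Spots of 1 probe had a median SD of 0.08 on each array. Python 3.11.15, pandas 2.3.3, numpy 2.4.6, and limma 3.58.1 in R 4.3.3 (normexp, offset 50) were used, and the steps were tested on simulated data. Alternatives were other background corrections, scalings, probe choices and thresholds.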

Additional observations from a re-analysis of the deposited data

How the results depend on the processing

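The medians of the 5 complexes and of the members stayed below 0 under every scaling tried. The member median minus that of all genes was -0.77 as reported and between -0.81 (median of all probes) and -0.52 (quantile normalization). The number of members at least 2-fold lower, 36 as reported, was 20 after quantile normalization (24.4% beside 18.2% of all genes), 22 with scaling to Gapdh (26.8% beside 13.0%) and 67 with scaling to Actb (81.7% beside 46.0%), and 56 at 1.5-fold and 9 at 4-fold. The number higher, 4 as reported, was 1 with normexp, 2 with Actb and 2 at 4-fold. Gapdh scaling moved the median of all genes to 0.14, the deposited table to -0.31 and scaling to Actb, which read 1.68-fold higher in Sox9+EpCAM- cells, to -0.92. With Actb 7.77% of all genes were 2-fold higher, and the medians were -1.64 for the members, -1.72, -2.21, -1.71 and -1.51 for complexes I to IV, -1.61 for ATP synthase, -1.62 for subunits outside the naming rule, -1.66 for factors of complex I, -1.35 of complexes II and III, -1.66 of complex IV and -1.59 of ATP synthase, -1.71 for electron carriers, -1.11 for ADP and proton carriers, -1.50 for the citric acid cycle, -1.24 for DNA upkeep, -1.25 for regulators, -0.88 for import, -1.34 and -0.82 for the mitochondrial and cytosolic ribosomes and -1.85 for antioxidant enzymes. Single members moved by over 1.5-fold in all 82 cases with Actb, in 5 with the median of all probes and in 3 with normexp; for complex I the count lower was 8 (quantile), 9 (Gapdh) and 32 (Actb). The cause was not tested.

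No paired analysis was possible because only 1 array exists for MHs and 1 for Sox9+EpCAM- cells. Leaving out a replicate and fitting the slide as a block were not run for the same reason. The dim probes of Cox6a2 and Cox6b2 in MHs limit these values, which were 0.97 and 2.97 with normexp.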
